A study of Mus musculus with 16 samples.

Results

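The genes described here are 10 cytokine, chemokine and regulator genes that the transcription factor NF-kB switches on in macrophages: Il6, Tnf, Il1a, Il1b, Il1rn, Cxcl1, Cxcl2, Nfkbiz, Nfkbia and Tnfaip3. They were chosen by name, with earlier results of these data known. All 10 were measured, and they stand among 17097 genes on the arrays. Each gene was read from its probe set (a group of array probes for 1 transcript) with the highest mean over the 16 arrays. The study set macrophages of mice lacking the succinate receptor gene Sucnr1 in myeloid cells against those of control mice, in visceral and in subcutaneous fat. The 4 groups, of 4 pools each, are KO-LysM VAT, KO-LysM SAT, WT VAT and WT SAT, where VAT is visceral and SAT subcutaneous adipose tissue. KO-LysM mice carry floxed Sucnr1 and Cre recombinase driven by the lysozyme M promoter, which is active in macrophages, monocytes and neutrophils. WT stands for mice with the floxed alleles and, by their name, without Cre, so loss of Sucnr1 and presence of Cre cannot be told apart. All mice were 19 to 21 weeks old, and the labels carry the abbreviation NCD, left without explanation. The sample titles call the WT pools untreated and the knockout pools treated with KO-LysM, which is the name of the genotype. They name no other treatment. Each group has 2 pools from each of 2 days, and the labels do not say how many mice made a pool. The cells were taken from collagenase-digested fat with CD11b beads, although another label speaks of F4/80-positive cells, and RNA of 300000 cells went through 24 amplification cycles. Nothing says that the pools came from separate animals, so p-values measure the spread between these pools only.

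NF-kB is held in the cytoplasm by inhibitor proteins until signals from Toll-like, interleukin-1 or tumour necrosis factor receptors lead to their destruction. The freed factor then switches on genes for inflammatory cytokines and neutrophil-attracting chemokines. It also switches on its own brakes, among them the inhibitor IkB-alpha (Nfkbia) and the ubiquitin-editing enzyme A20 (Tnfaip3). In fat, macrophages and stromal cells both make such cytokines, and their output is a usual measure of how inflamed the tissue is.

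Several of the genes carry an NF-kB motif close to their start, and the stretches are shown because Il6, Cxcl1 and Cxcl2, on which several results turn, are among those that hold one. RefSeq sequences (GRCm38.p6) were at hand for 9 of the 10 genes, not for Nfkbiz. The 250 bases before the start were searched on both strands for a strict motif (GGGA, any 2 bases, then TTCC) and for the looser NF-kB consensus, which contains it. The strict motif was found before 4 of the 9 genes, against 1.21% of all 32851 promoter windows of this length. The consensus was found before 5 of the 9, against 7.25% of windows. A gene counts if any of its windows has the motif (12 windows for the 9 genes), whereas the share is per window. The genes were listed as NF-kB targets, so these counts describe the list and say nothing about the arrays. Each stretch below runs 5′ to 3′ on the strand of its gene, and capitals mark the motif.
Il6 at chr5:30013040-30013109, plus strand: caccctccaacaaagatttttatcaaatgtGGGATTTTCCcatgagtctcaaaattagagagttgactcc
Cxcl1 at chr5:90891144-90891213, plus strand: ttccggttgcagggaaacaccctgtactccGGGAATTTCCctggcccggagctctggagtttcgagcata
Cxcl2 at chr5:90903772-90903841, plus strand: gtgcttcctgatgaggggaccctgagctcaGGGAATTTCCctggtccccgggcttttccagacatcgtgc
Nfkbia at chr12:55492648-55492706, minus strand: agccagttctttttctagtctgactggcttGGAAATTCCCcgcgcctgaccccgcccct
Tnfaip3 at chr10:19015411-19015452, minus strand: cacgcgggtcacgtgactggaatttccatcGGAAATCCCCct
The Il6 motif lies 44 to 35 bases before the start, that of Cxcl1 71 to 62 and that of Cxcl2 97 to 88. In Cxcl1 and Cxcl2 the motif overlaps a match on the opposite strand that is shifted by a single base. The Nfkbia motif is read on the opposite strand, 29 to 20 bases before the start. Tnfaip3 has a match to the consensus only, 12 to 3 bases before the start and also on the opposite strand, and a further one farther upstream. The windows of Tnf, Il1a, Il1b and Il1rn held no match, which says only that these letters are not in these windows.

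Some facts of the arrays bear on all that follows. The interquartile range of the log2 values on an array ran from 2.36 to 2.63 on KO-LysM arrays and from 2.01 to 2.54 on WT arrays. Within WT VAT it was 2.01 and 2.15 on day 1 and 2.50 and 2.54 on day 2. The mean log2 level of 6 seminal vesicle genes was 9.62 to 10.35 on the KO-LysM SAT arrays, against 4.36 to 4.55 in KO-LysM VAT, 4.43 to 4.78 in WT VAT and 4.44 to 5.87 in WT SAT. That tissue lies in the abdomen, which puts the subcutaneous label of these arrays in question, although the mean was low on the WT VAT arrays too. The source of the transcripts was not tested. The mean of 8 skeletal muscle genes reached 6.28 in KO-LysM VAT, 5.04 in KO-LysM SAT and 5.24 in WT VAT, and was 7.25 to 8.15 in WT SAT. KO-LysM SAT and KO-LysM VAT are therefore the arrays so labelled throughout. For the 10 genes the knockout differences are also given across the depot labels, while the mean over both depots does not depend on the depot labels. Sucnr1 was at or below 3.65 on every array, under the background level of 4.40 (the 95th percentile of 17 olfactory receptor genes), and does not check the genotype. Lyz2, the lysozyme M gene, fell by 0.64 ± 0.14 in KO-LysM SAT against WT SAT (SE, limma adjusted p = 0.00525). It fell by 0.58 ± 0.14 in KO-LysM VAT against WT VAT (adjusted p = 0.0156). Across the depot labels Lyz2 was at -0.09 ± 0.14 in KO-LysM SAT minus WT VAT and did not pass (adjusted p = 0.642). In KO-LysM VAT minus WT SAT it fell by 1.13 ± 0.14 (adjusted p = 0.000165), and over both depots by 0.61 ± 0.10 (adjusted p = 0.000573). All 12 macrophage markers, Cd68 and Adgre1 (F4/80) among them, were above background in every group.

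Il6 (chr5:30013114-30019975, GRCm38.p6) encodes interleukin-6, a cytokine that drives the acute-phase response and that both macrophages and stromal cells release. Its log2 values were 8.38, 7.98, 8.42 and 8.68 in KO-LysM SAT (pools 1 to 4), against 5.73, 5.56, 5.46 and 5.42 in WT SAT. All 4 KO-LysM SAT pools were far above all 4 WT SAT pools. Il6 was 7.06-fold higher, a log2 change of 2.82 ± 0.30 (SE, 4 pools in each group, limma adjusted p = 4.39e-05), with 2.53 on day 1 and 3.11 on day 2. The call held under all 12 alternative settings and with each array left out.

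In visceral fat, Il6 stood at 6.70, 6.76, 7.55 and 7.21 in KO-LysM VAT, against 5.95, 6.68, 8.26 and 7.94 in WT VAT. The groups overlap, and the WT VAT pools split by day: the day 1 pools lie below all knockout pools and the day 2 pools above them. The difference of -0.15 ± 0.30 (SE) did not pass (limma adjusted p = 0.725). It was 0.42 on day 1 alone and -0.72 on day 2 alone. It was -0.49 without WT VAT pool 1, 0.11 without WT VAT pool 3, and 0.61 (adjusted p = 0.048) without WT VAT pools 3 and 4, a setting chosen after seeing the data. With the spread of each array as a term it was -0.83 (adjusted p = 0.0142).

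The knockout effect on Il6 thus differed between the depots as labelled. The effect in VAT minus that in SAT was -2.97 ± 0.43 (SE, limma adjusted p = 0.000631), with -2.11 on day 1 and -3.83 on day 2, and it passed in every alternative that kept the depot labels. With each knockout group set against the wild-type group of the other depot label, a setting added after seeing the data, the differences were 1.16 (KO-LysM SAT minus WT VAT) and 1.51 (KO-LysM VAT minus WT SAT). The first minus the second was -0.35 ± 0.43 and did not pass (adjusted p = 0.82). Averaged over both depots, Il6 was higher in KO-LysM by 1.33 ± 0.21 (SE, n = 8 pools per genotype, limma adjusted p = 0.000512). With array spread as a term this mean was 0.44 and did not pass (adjusted p = 0.193). The order of the Il6 levels was KO-LysM SAT at 8.36 ± 0.29, WT VAT at 7.21 ± 1.08, KO-LysM VAT at 7.06 ± 0.40 and WT SAT at 5.55 ± 0.14 (SD, n = 4). The neighbours WT VAT and KO-LysM VAT did not differ beyond their spread.

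**Figure D1:**
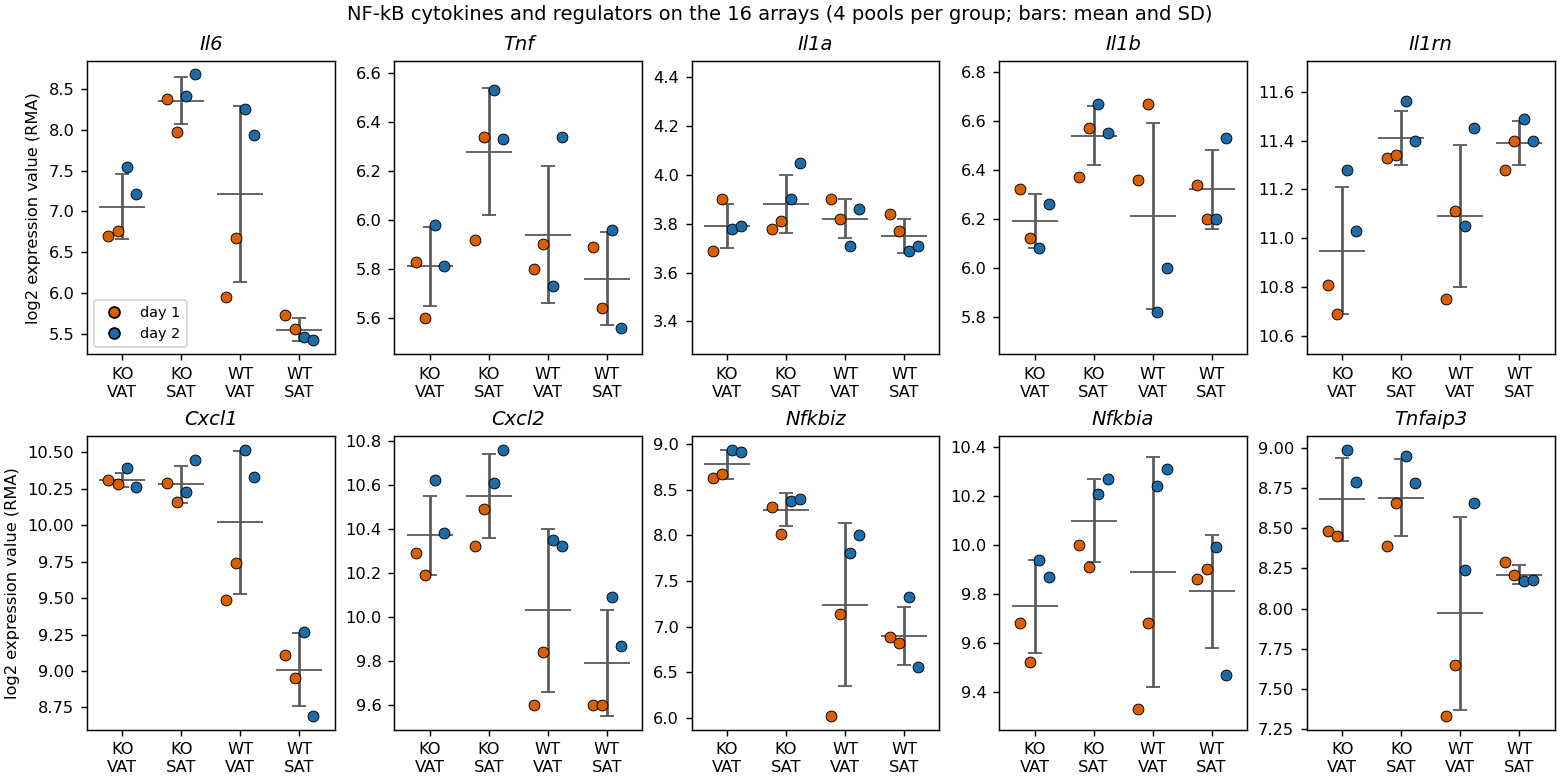
Log2 expression value (RMA) of each of the 10 genes on the 16 arrays, with 1 panel per gene and 1 point per pool, coloured by day; the bars give the mean and SD of the 4 pools of a group. Il6 is at 7.98 or above in all KO-LysM SAT pools and at 5.73 or below in all WT SAT pools, and the WT VAT pools split by day for Il6, Cxcl1, Cxcl2, Nfkbiz, Nfkbia and Tnfaip3, with day 2 higher, and for Il1b, with day 1 higher.

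Cxcl1 (chr5:90891245-90893121) and Cxcl2 (chr5:90903899-90905938) encode chemokines that draw neutrophils through the receptor Cxcr2, and they lie close to each other on chromosome 5. Cxcl1 had log2 values of 10.29, 10.16, 10.23 and 10.45 in KO-LysM SAT, against 9.11, 8.95, 9.27 and 8.69 in WT SAT. It was at 10.31, 10.28, 10.39 and 10.26 in KO-LysM VAT, against 9.49, 9.74, 10.52 and 10.33 in WT VAT. The 8 knockout pools lie close together, whereas all WT SAT pools and the day 1 pools of WT VAT lie below them and the day 2 pools of WT VAT do not. Cxcl1 rose 2.42-fold in KO-LysM SAT against WT SAT (log2 change 1.28 ± 0.17, SE, limma adjusted p = 0.000255), with 1.19 on day 1 and 1.36 on day 2. In KO-LysM VAT against WT VAT its change of 0.29 ± 0.17 did not pass (adjusted p = 0.217), with 0.68 on day 1, where it passed alone (adjusted p = 0.00887), and -0.10 on day 2. Without WT VAT pools 3 and 4 it was 0.68 (adjusted p = 0.00296).

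The knockout effects on Cxcl1 differed between the depots by -0.98 ± 0.24, VAT minus SAT (SE, limma adjusted p = 0.0271). It was -0.51 on day 1 and -1.46 on day 2. The call was lost on day 1 alone, with no day term (-0.98), with arrays centred on their medians (adjusted p = 0.0622), and without WT VAT pool 4, KO-LysM SAT pool 1, 2 or 4, or KO-LysM VAT pool 3 or 4 (-0.99 to -0.91). Without WT VAT pools 3 and 4 it was -0.60 (adjusted p = 0.0981). Across the depot labels Cxcl1 differed by 0.26 in KO-LysM SAT minus WT VAT and by 1.31 in KO-LysM VAT minus WT SAT, and the first minus the second was -1.04 ± 0.24 (adjusted p = 0.0291). Over both depots Cxcl1 was higher in KO-LysM by 0.78 ± 0.12 (limma adjusted p = 0.000384), and by 0.31 with array spread as a term, where it did not pass (adjusted p = 0.121).

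Cxcl2 had log2 values of 10.32, 10.49, 10.61 and 10.76 in KO-LysM SAT, against 9.60, 9.60, 10.09 and 9.87 in WT SAT. It had 10.29, 10.19, 10.62 and 10.38 in KO-LysM VAT, against 9.60, 9.84, 10.35 and 10.32 in WT VAT. The subcutaneous groups do not overlap, and the visceral groups do. Cxcl2 rose 1.69-fold in KO-LysM SAT (log2 change 0.75 ± 0.10, SE, limma adjusted p = 0.000227) and 1.27-fold in KO-LysM VAT (0.34 ± 0.10, adjusted p = 0.0315). The subcutaneous change was 0.81 on day 1 and 0.70 on day 2, and the visceral one 0.52 and 0.16. The visceral call was lost on day 2 alone, with no day term (0.34), with only the arrays compared (0.34), after quantile normalization (0.16), with array spread as a term (0.20), and without WT VAT pool 1 or 2 or KO-LysM VAT pool 1, 2 or 3 (0.25 to 0.34). Averaged over both depots the rise was 0.55 ± 0.07 (limma adjusted p = 0.000133), and it passed under every setting run, with array spread as a term too (0.36, adjusted p = 0.026).

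Tnf and the interleukin-1 genes moved less. Tnf (chr17:35199367-35202007), the tumour necrosis factor gene, had log2 values of 5.92, 6.34, 6.53 and 6.33 in KO-LysM SAT, against 5.89, 5.64, 5.96 and 5.56 in WT SAT. The lowest knockout pool lies just below the highest wild-type pool. Tnf rose 1.43-fold in KO-LysM SAT (log2 change 0.52 ± 0.14, SE, limma adjusted p = 0.014). It was 0.37 on day 1 and 0.68 on day 2. The call was lost on day 1 alone, without WT SAT pool 4 (0.42) and with array spread as a term (0.34, adjusted p = 0.364). In KO-LysM VAT Tnf averaged 5.81 ± 0.16, against 5.94 ± 0.28 in WT VAT (SD, n = 4, adjusted p = 0.493).

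Il1b (chr2:129364569-129371164), the secreted interleukin-1 beta gene, averaged 6.54 ± 0.12 in KO-LysM SAT against 6.32 ± 0.16 in WT SAT, and 6.19 ± 0.11 in KO-LysM VAT against 6.21 ± 0.38 in WT VAT (SD, n = 4). Neither difference passed (limma adjusted p = 0.224 and 0.934). In WT VAT it was 6.36 and 6.67 on day 1 and 5.82 and 6.0 on day 2. With array spread as a term Il1b was higher by 0.61 in KO-LysM SAT (adjusted p = 0.0442). Il1a (chr2:129299609-129310186), the cell-bound interleukin-1 alpha gene, lay between 3.69 and 4.05 on all 16 arrays, under the background level of 4.40, so no difference in it could be measured. Il1rn (chr2:24336860-24351491) encodes the secreted antagonist that blocks the interleukin-1 receptor. It stood at 11.33, 11.34, 11.56 and 11.40 in KO-LysM SAT, against 11.28, 11.40, 11.49 and 11.40 in WT SAT. These groups overlap (limma adjusted p = 0.908). The other probe sets of Il1rn were at 0.28 ± 0.12 and 0.21 ± 0.14 (SE) in KO-LysM SAT minus WT SAT. They did not pass (limma adjusted p over all probe sets = 0.0801 and 0.237). In visceral fat Il1rn had 10.81, 10.69, 11.28 and 11.03 in KO-LysM VAT, against 10.75, 11.11, 11.05 and 11.45 in WT VAT, which overlap as well (limma adjusted p = 0.364). There the other probe sets were at 0.05 and -0.07 and did not pass.

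The regulators did not move as a block. Nfkbiz (chr16:55811375-55838954) encodes IkB-zeta, a nuclear partner of NF-kB needed for late targets such as Il6. Its log2 values were 8.31, 8.02, 8.38 and 8.40 in KO-LysM SAT, against 6.89, 6.82, 7.33 and 6.56 in WT SAT. They were 8.63, 8.67, 8.93 and 8.91 in KO-LysM VAT, against 6.02, 7.14, 7.81 and 8.00 in WT VAT. On this probe set all 8 knockout pools were above all 8 wild-type pools, though the lowest knockout pool, at 8.02, and the highest wild-type pool, at 8.00, nearly touch. On another probe set of the gene the genotypes overlap, with WT VAT pools 3 and 4 at 7.05 and 7.53 and KO-LysM VAT pool 2 at 6.99. On the remaining one they do not, with WT VAT pool 3 highest of the wild type at 4.43 and KO-LysM SAT pool 1 lowest of the knockout at 4.49.

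Nfkbiz rose 2.60-fold in KO-LysM SAT (log2 change 1.38 ± 0.26, SE, limma adjusted p = 0.00262) and 2.91-fold in KO-LysM VAT (1.54 ± 0.26, adjusted p = 0.00215). The changes were 1.31 on day 1 and 1.45 on day 2 in SAT, and 2.07 and 1.01 in VAT. The subcutaneous call was lost on day 1 alone (1.31, adjusted p = 0.0535) and with array spread as a term (0.42, adjusted p = 0.317), and the visceral call on day 2 alone (1.01, adjusted p = 0.0603). Averaged over both depots Nfkbiz rose by 1.46 ± 0.19 (limma adjusted p = 0.000143), and it passed under every setting run, at 0.69 with array spread as a term (adjusted p = 0.0233). The other 2 probe sets of the gene were also higher in the knockout over both depots, by 0.62 ± 0.15 and 0.44 ± 0.08 (SE, limma adjusted p over all probe sets = 0.00564 and 0.00127). In SAT they were at 0.58 (adjusted p = 0.0476) and 0.24 (adjusted p = 0.116), and in VAT at 0.65 (adjusted p = 0.0564) and 0.64 (adjusted p = 0.00355). The second of them was at 4.02 to 4.43 on the WT arrays, around the background level, so its sizes are not exact. The effects on Nfkbiz in the depots differed by 0.16 ± 0.37, VAT minus SAT (adjusted p = 0.93).

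Tnfaip3 (chr10:19000910-19015410), the A20 gene, had log2 values of 8.39, 8.66, 8.95 and 8.78 in KO-LysM SAT, against 8.29, 8.21, 8.17 and 8.18 in WT SAT. It had 8.48, 8.45, 8.99 and 8.79 in KO-LysM VAT, against 7.33, 7.65, 8.24 and 8.66 in WT VAT. The subcutaneous groups do not overlap, and in visceral fat 1 wild-type pool lies among the knockout pools. Tnfaip3 rose by 0.71 ± 0.17 in KO-LysM VAT (SE, limma adjusted p = 0.0149), with 0.97 on day 1 and 0.44 on day 2. The visceral call was lost on day 2 alone, with no day term (0.71) and with array spread as a term (0.38). In KO-LysM SAT it rose by 0.48 ± 0.17 (limma adjusted p = 0.0394), with 0.27 on day 1 and 0.69 on day 2. This call was lost after quantile normalization (0.15), with array spread as a term, where the sign turned (-0.06), and with pool number as a block (0.48, adjusted p = 0.0571). It was also lost with no day term (0.48), on day 1 alone, with the mean over probe sets (0.25), and without WT SAT pool 3 or 4, any 1 KO-LysM SAT pool or KO-LysM VAT pool 2 (0.39 to 0.53). Over both depots the rise was 0.59 ± 0.12 (limma adjusted p = 0.0019), and 0.16 with array spread as a term (adjusted p = 0.564). The other probe set of Tnfaip3, which enters the mean over probe sets, averaged 4.22 over the 16 arrays, under the background level. It was at 0.02 in SAT, -0.08 in VAT and -0.03 over both depots, and did not pass.

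Nfkbia (chr12:55489409-55492647), the IkB-alpha gene, averaged 10.10 ± 0.17 in KO-LysM SAT against 9.81 ± 0.23 in WT SAT, and 9.75 ± 0.19 in KO-LysM VAT against 9.89 ± 0.47 in WT VAT (SD, n = 4). Neither difference passed (limma adjusted p = 0.145 and 0.534). With array spread as a term Nfkbia fell by 0.52 ± 0.08 in KO-LysM VAT (adjusted p = 0.000817) and fell by 0.42 ± 0.08 over both depots (adjusted p = 0.00508). In VAT it was also lower after quantile normalization (-0.37, adjusted p = 0.0103), and in SAT it was higher on day 2 alone (0.51, adjusted p = 0.0387). In WT VAT it was 9.33 and 9.68 on day 1 and 10.24 and 10.31 on day 2.

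**Figure D2:**
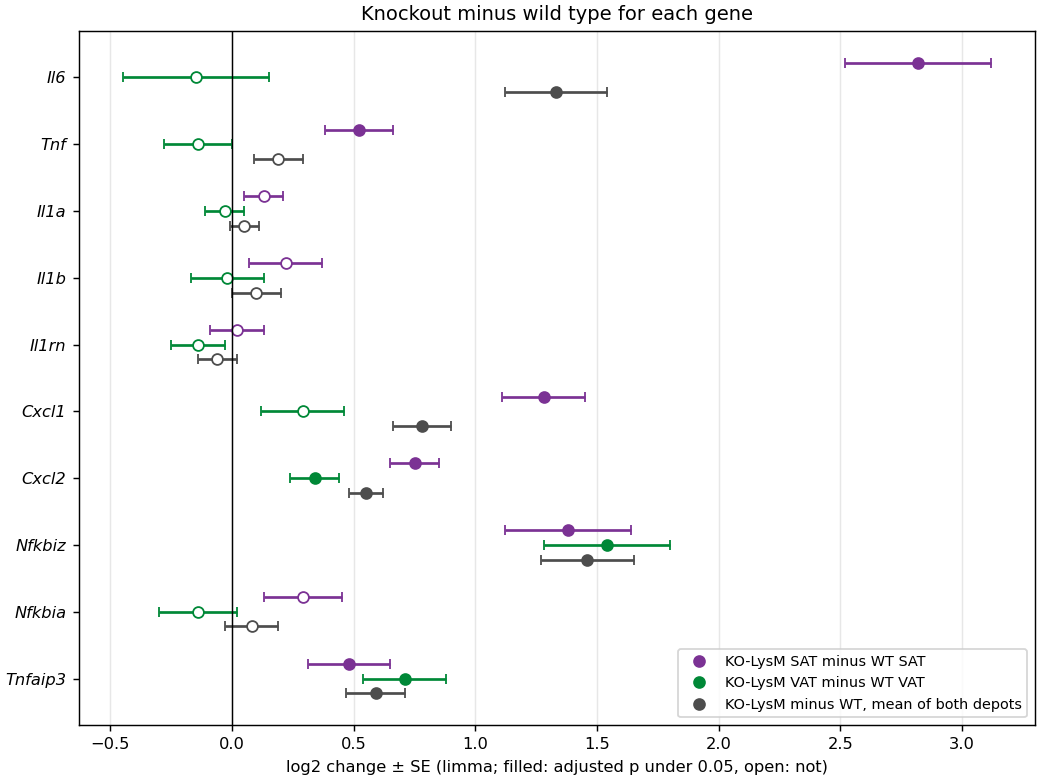
Log2 change (x axis, with its SE) of each gene in KO-LysM minus WT, in SAT, in VAT and as the mean of both depots; filled points passed at an adjusted p under 0.05 and open points did not. Il6 is at 2.82 in SAT and -0.15 in VAT, while Nfkbiz is at 1.38 and 1.54.

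Of the 10 genes, 6 passed in KO-LysM SAT against WT SAT, all higher, where 36.7% of all genes passed, 16.7% as higher and 20% as lower. In KO-LysM VAT against WT VAT 3 passed, all higher, where 15.9% of all genes passed, 10.2% as higher and 5.76% as lower. Averaged over both depots 5 passed, all higher, where 51.7% of all genes passed, 22.5% as higher and 29.2% as lower. The 5 are Il6, Cxcl1, Cxcl2, Nfkbiz and Tnfaip3. For the difference of the knockout effects between depots 2 passed, both lower, where 4.22% of all genes passed, 2.1% as higher and 2.12% as lower. The median log2 change of the 10 genes was 0.50 in SAT, -0.03 in VAT and 0.37 over both, against -0.05 over all genes in each. For the difference of the effects it was -0.33, against 0.02 over all genes. The genes were listed with earlier results of these data known, so these counts and medians are descriptions only. The split of all passed genes moved with the scaling. In SAT 2859 were higher and 3420 lower as reported, 3259 and 2030 with arrays centred on their medians, and 2057 and 3166 after quantile normalization. In VAT 1740 were higher and 984 lower as reported, 1798 and 534 with centring, and 1583 and 1503 after quantile normalization. Over both depots 3841 were higher and 4990 lower as reported, and 4504 and 2937 with centring.

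Within each genotype the depots were also compared, and these comparisons share their arrays with those above. In KO-LysM VAT against KO-LysM SAT, Il6 fell by 1.31 ± 0.30 (SE, limma adjusted p = 0.0209), with -1.44 on day 1 and -1.17 on day 2, and its groups do not overlap. Il1rn fell by 0.46 ± 0.11 (limma adjusted p = 0.027), without overlap too. Of its other 2 probe sets, 1 fell by 0.52 (limma adjusted p over all probe sets = 0.0255) and 1 was at -0.44 and did not pass (adjusted p = 0.127). These 2 genes were those that passed, where 4.32% of all genes passed, 1.92% as higher and 2.39% as lower, and the median of the 10 genes was -0.26, against 0 over all genes. The Il6 call was lost with no day term (-1.31) and without KO-LysM SAT pool 1, 2 or 4 or KO-LysM VAT pool 1, 2 or 4 (-1.33 to -1.19). The Il1rn call was lost without KO-LysM SAT pool 1, 2 or 3 or KO-LysM VAT pool 1, 2 or 4 (-0.45 to -0.41), with no day term (-0.46), with arrays centred on their medians (-0.46) and on either day alone (-0.59 and -0.33). In the same comparison 5 of 12 macrophage markers fell, among them Cd68 by 0.64 and Fcgr1 by 0.69. Fewer macrophages and less of a transcript per cell cannot be told apart in pooled RNA.

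In WT VAT against WT SAT, Il6 was 3.17 times as high (1.66 ± 0.30 on the log2 scale, SE, limma adjusted p = 0.00771) and Cxcl1 2.02 times (1.01 ± 0.17, adjusted p = 0.00387). These were the genes that passed, where 2.84% of all genes passed, 1.52% as higher and 1.32% as lower, and neither overlaps between the groups. The median of the 10 genes was 0.13, against -0.02 over all genes. The Il6 difference was 0.67 on day 1 and 2.66 on day 2, and that of Cxcl1 0.58 and 1.44, and neither passed on day 1 alone or when the knockout arrays were left out of the fit. Without WT VAT pools 3 and 4, Il6 was higher by 0.90 and did not pass (adjusted p = 0.0642). The Il6 depot difference thus ran down in the knockout and up in the wild type, which is the same contrast as the difference of the knockout effects given above.

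Across the depot labels, KO-LysM SAT was set against WT VAT and KO-LysM VAT against WT SAT. In KO-LysM SAT minus WT VAT 4 of the 10 genes passed, all higher, where 6.89% of all genes passed, 4.71% as higher and 2.18% as lower (806 and 372 genes, with 845 and 202 after median centring and 593 and 473 after quantile normalization). The median of the 10 genes was 0.33, against -0.03 over all genes. Il6 was higher by 1.16 ± 0.30, Cxcl2 by 0.52 ± 0.10, Nfkbiz by 1.03 ± 0.26 and Tnfaip3 by 0.72 ± 0.17 (SE, limma adjusted p = 0.0381, 0.0134, 0.0362 and 0.0287). On day 1 these were 1.86, 0.69, 1.58 and 1.03, and on day 2 0.45, 0.35, 0.48 and 0.42. None of the 10 genes passed in limma on day 2 alone, with no day term or with only the arrays compared, where 4, 7 and 5 had an unadjusted p under 0.05. With array spread as a term none of these 4 passed (0.39, 0.35, 0.37 and 0.35), and with pool number as a block Il6 (adjusted p = 0.0625) and Nfkbiz (adjusted p = 0.0558) did not, which leaves 2 of the 10. Those that did not pass in this comparison as reported were Tnf (0.34, adjusted p = 0.115), Il1b (0.33, 0.136), Il1rn (0.32, 0.0781), Cxcl1 (0.26, 0.272), Nfkbia (0.21, 0.352) and Il1a, under background. Of the other 2 probe sets of Il1rn, 1 was higher by 0.57 (limma adjusted p over all probe sets = 0.0184) and 1 was at 0.37 and did not pass (adjusted p = 0.0963). With the mean over probe sets Il1rn passed as higher (0.42, adjusted p = 0.0426). None of 12 macrophage markers passed in KO-LysM SAT minus WT VAT, and 4 had an unadjusted p under 0.05, all higher. None of 10 stromal progenitor markers passed either, and 3 had an unadjusted p under 0.05, all lower. Of 20 immediate early genes 4 rose.

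These calls also rested on single arrays. Without WT VAT pool 1 or 2, any 1 KO-LysM SAT pool, or KO-LysM VAT pool 1, 2 or 3, Il6 did not pass (0.82 to 1.25). Nfkbiz did not pass without WT VAT pool 1 or 2, any 1 KO-LysM SAT pool or KO-LysM VAT pool 2 (0.68 to 1.08). Tnfaip3 did not pass without WT VAT pool 1 or 2 or any 1 KO-LysM SAT pool (0.57 to 0.77), and Cxcl2 without KO-LysM SAT pool 2 (0.47). Without that pool none of the 10 genes passed in limma, and 5 had an unadjusted p under 0.05.

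In KO-LysM VAT minus WT SAT 6 genes passed, 5 higher and 1 lower, where 39.3% of all genes passed, 18.3% as higher and 21% as lower (3131 and 3586 genes, with 3460 and 2079 after median centring). The median of the 10 genes was 0.25, against -0.08 over all genes. Nfkbiz was higher by 1.88 ± 0.26, Il6 by 1.51 ± 0.30, Cxcl1 by 1.31 ± 0.17, Cxcl2 by 0.58 ± 0.10 and Tnfaip3 by 0.46 ± 0.17 (SE, limma adjusted p = 0.00029, 0.00242, 0.000183, 0.000923 and 0.0428). On day 1 these were 1.79, 1.09, 1.27, 0.64 and 0.21, and on day 2 1.98, 1.93, 1.34, 0.51 and 0.72. With array spread as a term Il6 (0.49) and Cxcl2 (0.36) did not pass, and Tnfaip3 turned sign (-0.03). Tnfaip3 was also lost with no day term, with pool number as a block (both 0.46), with the mean over probe sets (0.19), after quantile normalization (0.13) and on day 1 alone. It was lost too without any 1 KO-LysM VAT pool, KO-LysM SAT pool 1, 3 or 4, WT VAT pool 2, or WT SAT pool 3 or 4 (0.37 to 0.50). Il1rn fell by 0.44 ± 0.11 (limma adjusted p = 0.0082), by 0.59 on day 1 and 0.29 on day 2, where it did not pass alone. Its other probe sets were at -0.24 and -0.23 and did not pass (adjusted p = 0.121 and 0.207). Il1rn was at 0.32 in KO-LysM SAT minus WT VAT, and that value minus this one was 0.76 ± 0.16 (adjusted p = 0.0159). Tnf (0.04, adjusted p = 0.811), Il1b (-0.12, 0.503) and Nfkbia (-0.05, 0.808) did not pass in KO-LysM VAT minus WT SAT, and Il1a was under background. Nfkbia did pass as lower with array spread as a term (-0.63, limma adjusted p = 0.000884) and after quantile normalization (-0.32, adjusted p = 0.013). In the same comparison 10 of 12 macrophage markers fell, with a median of -0.75, and 5 of 10 stromal progenitor markers rose, with a median of 0.64. Of 20 immediate early genes 12 rose and 2 fell. The part of these in the changes of the 10 genes was not tested.

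Of the 4 pairings of a knockout with a wild-type group, Cxcl2, Nfkbiz and Tnfaip3 passed as higher in 4, Il6 in 3 and Cxcl1 in 2. Tnf did so only in KO-LysM SAT minus WT SAT. In the single pairings 4.71% to 18.3% of all genes passed as higher. The pairings share arrays, so passing in several is not repeated support. The share of all genes that did so was not counted, and in 2 pairings the depot label differs along with the genotype. The tally does not rank the genes. The Tnfaip3 call held in 6 of 12 alternatives and 9 of 16 fits with an array left out in KO-LysM SAT minus WT SAT. In KO-LysM VAT minus WT SAT it held in 6 of 12 and 6 of 16.

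**Figure D3:**
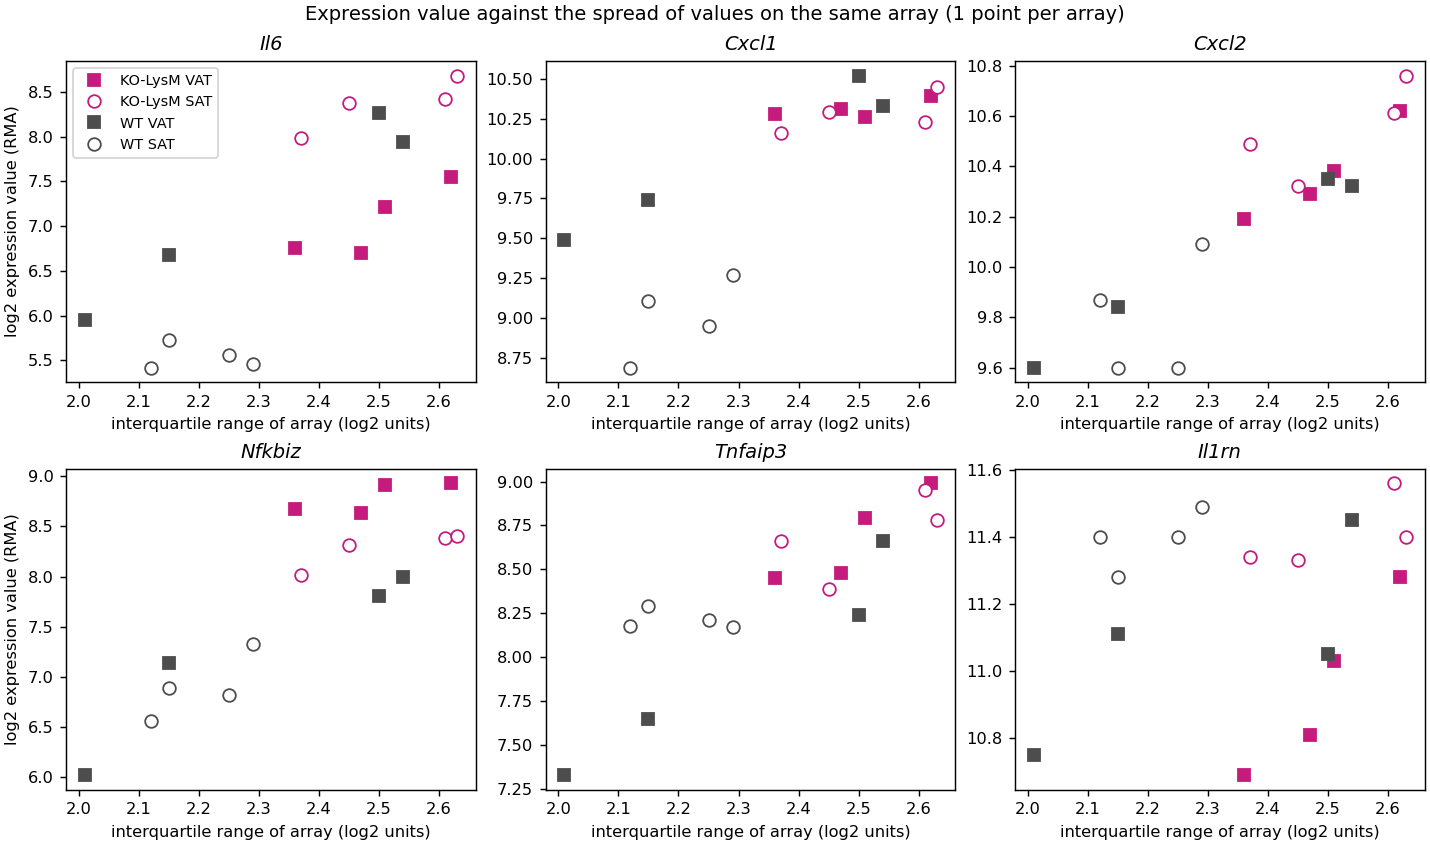
Log2 expression value (y axis) against the interquartile range of all log2 values on the same array (x axis), 1 point per array, for 6 genes. The 2 WT VAT arrays with ranges of 2.50 and 2.54 lie among the KO-LysM arrays on both axes for Cxcl2, while for Nfkbiz, at 7.81 and 8.00, they lie below all KO-LysM arrays.

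Array spread moved along with some of these differences. Expression value is plotted against it for Il6, Cxcl1, Cxcl2, Nfkbiz, Tnfaip3 and Il1rn, not for Nfkbia or Il1b. The day 2 pools of WT VAT, whose spread lies within that of the knockout arrays, had the higher values of Il6, Cxcl1, Cxcl2, Nfkbiz, Nfkbia and Tnfaip3 within their group, and the lower values of Il1b. With array spread as a term, 4 genes passed in KO-LysM SAT against WT SAT, all higher: Il6 (1.71), Cxcl1 (0.68), Cxcl2 (0.52) and Il1b (0.61). In that fit 7.65% of all genes passed, 1.58% as higher and 6.07% as lower. In KO-LysM VAT against WT VAT 3 passed, Nfkbiz as higher (0.96) and Il6 (-0.83) and Nfkbia (-0.52) as lower, where 10.8% of all genes passed, 4.57% as higher and 6.25% as lower. Over both depots 3 passed, Nfkbiz (0.69) and Cxcl2 (0.36) as higher and Nfkbia (-0.42) as lower, where 7.91% of all genes passed, 1.96% as higher and 5.95% as lower. Array spread was wider in the knockout groups, and its part and that of the genotype cannot be fully told apart.

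Markers of other cells moved as well, and their part in these differences was not tested. Beside all marker counts, 16.7% of all genes passed as higher and 20% as lower in KO-LysM SAT against WT SAT. In KO-LysM VAT against WT VAT 10.2% passed as higher and 5.76% as lower. Of 10 stromal progenitor markers, 5 rose and 2 fell in KO-LysM SAT against WT SAT, and their mean level was 7.20 to 7.47 in KO-LysM SAT, against 6.78 to 7.04 in WT SAT. Fstl1 rose by 1.15 and Dcn by 0.75, and Col1a1 fell by 0.53. In VAT 1 of the 10 rose, with mean levels of 7.46 to 7.55 in KO-LysM VAT, against 7.11 to 7.75 in WT VAT. Of 8 endothelial markers, 4 rose in SAT, with array means of at least 6.58 in KO-LysM SAT, against 5.66 to 5.97 in WT SAT. None of the 8 passed in VAT in limma (2 had an unadjusted p under 0.05), where the highest array mean was 6.69 in KO-LysM VAT and 6.63 in WT VAT.

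Lymphocyte markers were mostly lower in SAT. All 7 measured T cell markers fell, with means of 4.75 to 5.21 in KO-LysM SAT, against 5.95 to 6.25 in WT SAT, and so did 5 of 7 B cell markers. Of 10 measured neutrophil markers, 4 fell, with a mean of 4.91 to 5.05 in KO-LysM SAT, against 5.18 to 5.69 in WT SAT. Their median change was -0.40. The 17 olfactory receptor genes, which stand for the background, were lower there too: 9 fell, with a median of -0.32 and array means of 3.75 to 3.94 in KO-LysM SAT, against 4.09 to 4.22 in WT SAT. In VAT 2 of the 10 rose and 2 fell, with 4.93 to 5.26 in KO-LysM VAT and 4.95 to 5.35 in WT VAT. Of 12 macrophage markers, 3 fell in SAT, near the 20% of all genes that passed as lower there. One of them was Lyz2, the gene whose promoter drives Cre in the knockout. The mean of the 12 was 8.24 to 8.82 in KO-LysM SAT, against 8.51 to 8.97 in WT SAT. The other 9 did not pass, and of 6 measured monocyte markers 2 rose and 1 fell. In VAT 3 macrophage markers fell as well, Lyz2 again among them, with 7.67 to 8.37 in KO-LysM VAT, against 7.75 to 8.90 in WT VAT.

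Immediate early genes, whose RNA rises quickly upon many stimuli, cell isolation among them, also moved. Of 20, 9 rose and 1 fell in KO-LysM SAT against WT SAT, with a median of 0.38. Of all genes, 16.7% passed as higher and 20% as lower there, and 10.2% and 5.76% in VAT. Egr2 rose by 1.26 and Klf4 by 0.75, Btg2 rose by 0.70, and Egr3 fell by 0.71. In KO-LysM VAT against WT VAT 4 rose, Jun by 1.34, Klf4 by 0.58, Egr1 by 0.52 and Klf2 by 0.47, with a median of 0.30. Their part in the differences of the 10 genes was not tested.

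The other genes of the pathway were taken from lists chosen by function. Beside the counts of all these lists, 16.7% of all genes passed as higher and 20% as lower in KO-LysM SAT against WT SAT. In KO-LysM VAT against WT VAT 10.2% passed as higher and 5.76% as lower. Among NF-kB subunits and inhibitors, 3 of 8 measured rose in KO-LysM SAT: Nfkbie, an inhibitor of the IkB family, by 0.69, and the subunit genes Relb by 0.53 and Rela by 0.57. In KO-LysM VAT 1 of the 8 passed, the subunit gene Nfkb2, which fell by 0.42. Among 17 measured kinase and adaptor genes, 8 rose and 1, Map3k14, fell in SAT, and 2 rose and 1 fell in VAT. Map3k8, which encodes the kinase Tpl2 that links the pathway to ERK signalling, rose by 1.05 ± 0.17 in KO-LysM SAT and by 1.36 ± 0.17 in KO-LysM VAT (SE, limma adjusted p = 0.000939 and 0.000191). Map3k7, which encodes the kinase TAK1, rose by 0.66 and 0.74. The adaptor gene Tab2 rose by 0.65 in SAT and Tab3 by 1.10, while Tab1 fell by 0.34 in VAT.

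Among 24 other target genes, 9 rose and 1 fell in KO-LysM SAT, with a median of 0.38, and 5 rose and 2 fell in KO-LysM VAT, with a median of 0.06. Icam1, an adhesion molecule for leukocytes, was at 9.20 ± 0.27 in KO-LysM SAT against 7.64 ± 0.23 in WT SAT, and at 7.85 ± 0.62 in KO-LysM VAT against 9.01 ± 0.84 in WT VAT (SD, n = 4). It rose by 1.56 in SAT and fell by 1.16 in VAT, and the effects differed by -2.72 ± 0.29, VAT minus SAT (SE, limma adjusted p = 4.4e-05), in the direction seen for Il6. Across the depot labels it was at 0.19 in KO-LysM SAT minus WT VAT (adjusted p = 0.527) and at 0.21 in KO-LysM VAT minus WT SAT (adjusted p = 0.41), and passed in neither. Acod1, which makes itaconate, rose by 1.25 and Clec4e, a receptor for microbial glycolipids, by 0.61 in SAT, where its WT SAT mean of 4.01 was under the background level. The acute-phase gene Saa3 ran the other way, with a fall of 1.85 in SAT and a rise of 1.46 in VAT. Across the depot labels Saa3 was at 0.41 and -0.80 and did not pass (adjusted p = 0.362 and 0.0562). Ptgs2, the inducible cyclooxygenase, was at 8.98 ± 0.18 in KO-LysM VAT against 6.70 ± 0.98 in WT VAT and rose by 2.28 ± 0.38 (SE, limma adjusted p = 0.00164). Gadd45b, a stress-response gene, fell by 0.56 in VAT.

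Among 14 other cytokines and chemokines, 3 rose and 2 fell in KO-LysM SAT. The neutrophil chemokine gene Cxcl5 rose by 0.74, the monocyte chemokine gene Ccl2 by 0.74, while Il12b, with a KO-LysM SAT mean of 4.35 under the background level, fell by 0.36 and Ccl20 by 0.47. The third that rose was Ccl7 (0.99). In KO-LysM VAT 1 of the 14 passed: Ccl2 fell by 0.71. Across the depot labels Ccl2 was at -0.01 in KO-LysM SAT minus WT VAT (adjusted p = 0.973) and at 0.04 in KO-LysM VAT minus WT SAT (adjusted p = 0.825), and passed in neither. Of 13 measured negative regulators, 8 rose and 1, Sigirr, fell in SAT, and 2 rose in VAT. Tnip2, which binds A20, rose by 0.50 in SAT, the ubiquitin ligase gene Peli1 by 0.59, the deubiquitinase gene Otud7b by 0.77 and Tnip1 by 0.74. Otud7b rose by 0.67 and the phosphatase gene Dusp1 by 0.47 in VAT.

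Among 8 receptor genes for these cytokines and chemokines, 3 rose and 1 fell in SAT, and 2 rose in VAT. Il1r2, the decoy receptor for interleukin-1, fell by 0.47 in SAT, where the mean of KO-LysM SAT, 4.16, was under the background level, and rose by 0.59 in VAT, where that of WT VAT, 4.23, was under it. These sizes are therefore not exact. Il6st, the signalling chain of the interleukin-6 receptor, rose by 0.47 in SAT, and Il1rap, a subunit of the interleukin-1 receptor, by 0.67 in VAT. Of 5 measured genes for cytokine maturation, the caspase genes Casp4 and Casp1 rose in SAT by 1.42 and 0.86. In VAT none of the 5 passed in limma, and 1 had an unadjusted p under 0.05.

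The counts of these lists differed across the depot labels, and so did the share of all genes that passed. That share was 6.89% in KO-LysM SAT minus WT VAT, 4.71% as higher and 2.18% as lower. In KO-LysM VAT minus WT SAT it was 39.3%, 18.3% as higher and 21% as lower. In KO-LysM SAT minus WT VAT, 6 of the 24 other target genes rose, 4 of the 13 negative regulators, and 1 each of the 14 other cytokines and chemokines, the 17 kinase and adaptor genes and the 5 genes for cytokine maturation, and none of these lists had a member that fell. None of the 8 subunit and inhibitor genes or of the 8 receptor genes passed in limma, where 4 and 1 had an unadjusted p under 0.05. In KO-LysM VAT minus WT SAT, 5 of the 24 target genes rose and 3 fell, and 3 of the 14 cytokines and chemokines rose and 3 fell. Of the 13 negative regulators 5 rose and 1 fell, and of the 17 kinase and adaptor genes 6 rose and 4 fell. Of the 8 receptor genes 2 rose and 1 fell, of the 8 subunit and inhibitor genes 1 rose, and of the 5 genes for cytokine maturation 1 rose and 1 fell. Map3k8 rose in both, by 0.62 (adjusted p = 0.0426) and 1.79 (adjusted p = 2.14e-05). Ptgs2 was at 0.60 in KO-LysM SAT minus WT VAT and did not pass (adjusted p = 0.263), and rose by 2.30 in KO-LysM VAT minus WT SAT (adjusted p = 0.000755).

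**Figure D4:**
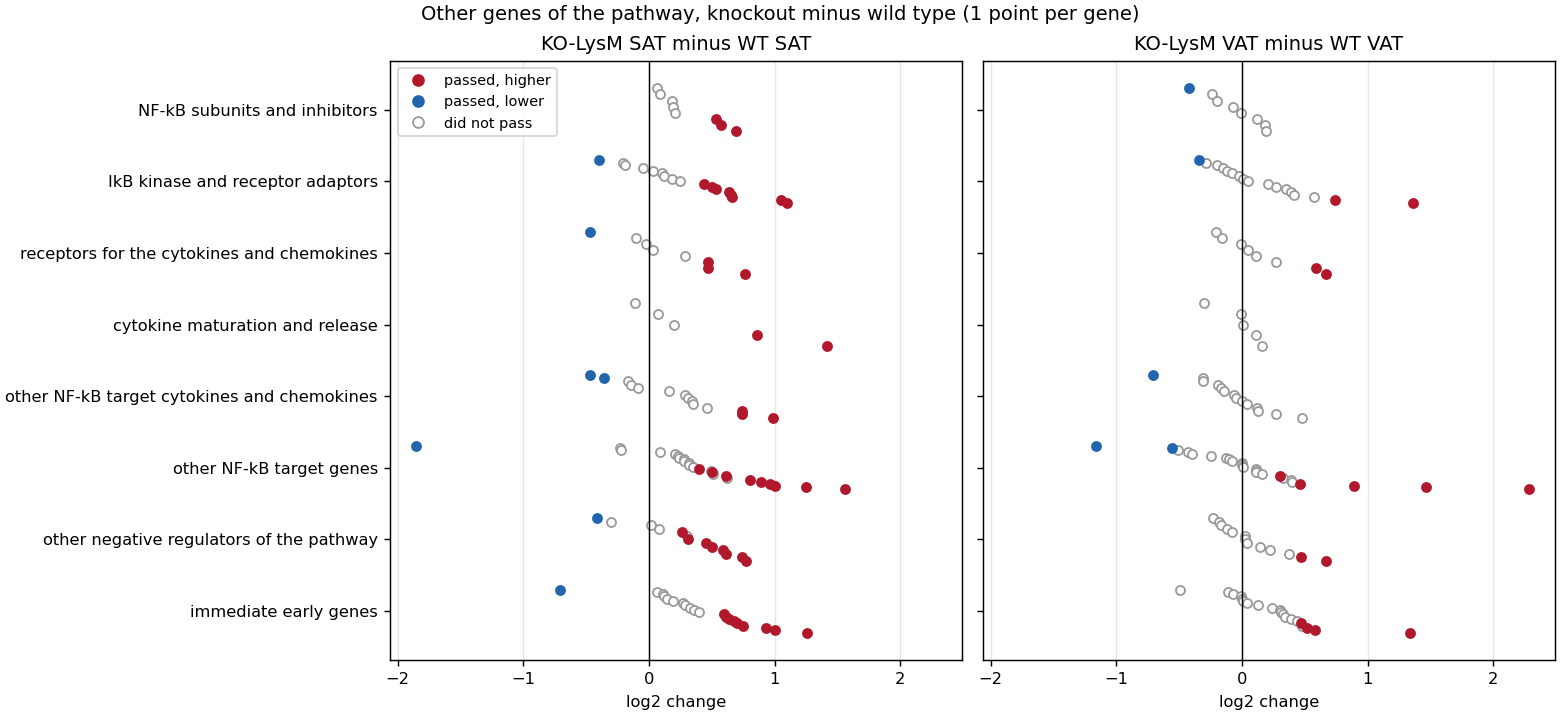
Log2 change (x axis) of the other genes of the pathway in KO-LysM SAT minus WT SAT (left) and KO-LysM VAT minus WT VAT (right), 1 point per gene, with lists down the page; red and blue points passed as higher and lower, and open points did not pass. More genes passed in SAT than in VAT in every list, and of all genes 36.7% passed in SAT and 15.9% in VAT.

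The genes whose values over the 16 arrays followed the mean of the 10 scaled genes most closely were Zcchc2, Sh3bgrl, Tceal9, Lacc1, Synj1 and Ifit1, with Pearson correlations of 0.955 to 0.945. These correlations are descriptions over arrays that share groups, days and array spread. Within the 10 genes, the correlation with that mean was highest for Cxcl2 (0.893), Il6 (0.879) and Tnf (0.837). It was 0.440 for Il1rn and 0.184 for Il1b.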

How the data were processed

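Expression was measured on 16 Affymetrix mouse arrays, 1 per pool. The log2 values were used as deposited; per the submitters' processing notes the authors applied RMA and the affy package, with no versions named. The build behind the array design is not given in the sources used here; positions and sequences are RefSeq's on GRCm38.p6. Of 45141 probe sets, 28898 had 1 gene in the platform annotation, 551 several and 15588 none, 104 were array controls, and each of 17097 genes took its probe set of highest mean. Linear models with group and day were fitted to all 16 arrays in limma 3.58.1 (R 4.3.3). Passing means a two-sided Benjamini-Hochberg adjusted p under 0.05 over all genes, in each of 8 comparisons. The model was tested on simulated data. Precision is limited by the number of arrays.

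The members, the gene lists and the alternatives were chosen with earlier results of these data known. Besides the 10 genes, the text names up to 4 genes of smallest p among those that passed in a list, up to 3 markers of highest mean per cell type, Lyz2 and Sucnr1, and the 6 genes closest to the mean of the members. Map3k14, Sigirr and Ccl7 were named after their values were seen, and Adgre1 because the labels name its product. Alternatives were no day term, pool number as a block, only the arrays compared, removal of the lowest 40% of probe sets, the mean over probe sets, median centring, quantile normalization, array spread (the interquartile range of an array's values) as a term, trend and robust settings, each day alone and each array left out. The fit without WT VAT pools 3 and 4 and the difference of effects across the depot labels came after the data had been seen.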

Additional observations from a re-analysis of the deposited data

Results flagged for a closer look

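The knockout effect on 2 of the 10 genes differed between the depots as labelled, in limma's test of the difference itself, VAT minus SAT. For Il6 the difference was -2.97 (adjusted p = 0.000631), with a log2 change of -0.15 in VAT and 2.82 in SAT. For Cxcl1 it was -0.98 (adjusted p = 0.0271), with 0.29 in VAT and 1.28 in SAT. The seminal vesicle transcripts on the KO-LysM SAT arrays, whose source was not tested, put that label in question. With each knockout group set against the wild-type group of the other depot label, the difference for Il6 was -0.35 (adjusted p = 0.82) and did not pass, and that for Cxcl1 was -1.04 (adjusted p = 0.0291). In no group of 4 pools did a single pool of any of the 10 genes stand apart from the others by Dixon's criterion, over 40 sets of 4 values.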

How the results depend on the processing

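Of the recomputed values of 31 log2 changes (those that passed, and Il6 in every comparison), 863 in all, 731 kept their direction and side of the threshold, 126 kept the direction and lost the call, 1 gained one and 5 changed sign. The sign changed for Tnfaip3 with array spread as a term, in KO-LysM SAT minus WT SAT (-0.06) and KO-LysM VAT minus WT SAT (-0.03), and for Il6 in KO-LysM VAT minus WT VAT on day 1 alone (0.42), without WT VAT pools 3 and 4 (0.61) and without WT VAT pool 3 (0.11), with -0.49 to 0.11 over the arrays left out. The cause of these changes was not tested. The other 49 changes, which did not pass as reported, were recomputed 1359 times: the sign changed 79 times and 47 values passed, Nfkbia as lower in KO-LysM VAT minus WT VAT with array spread as a term (-0.52) and after quantile normalization (-0.37) among them. The number of the 10 genes that passed was 6 in KO-LysM SAT minus WT SAT (3 on day 1 alone, 4 to 6 with an array left out). It was 3 in KO-LysM VAT minus WT VAT (1 with no day term, 0 on day 2 alone, 6 without WT VAT pools 3 and 4, 2 to 3 with an array left out). It was 5 over both depots (3 with array spread as a term, 5 to 6 with an array left out). It was 2 in KO-LysM VAT minus KO-LysM SAT (0 with no day term, 6 with only the arrays compared, 1 with median centring, 6 with array spread as a term, 1 on either day alone, 0 to 3 with an array left out). It was 2 in WT VAT minus WT SAT (0 with only the arrays compared, 4 with array spread as a term, 0 on day 1 alone, 5 on day 2 alone, 2 to 4 with an array left out). It was 2 for the difference of the knockout effects (1 with no day term, 1 with median centring, 1 on day 1 alone, 1 without WT VAT pools 3 and 4, 1 to 3 with an array left out). It was 4 in KO-LysM SAT minus WT VAT (0 with no day term, 2 with pool number as a replicate block, 0 with only the arrays compared, 1 with array spread as a term, 0 on day 2 alone, 7 without WT VAT pools 3 and 4, 0 to 6 with an array left out). It was 6 in KO-LysM VAT minus WT SAT (5 to 6 with an array left out). Where limma passed 0 of the genes, 2 to 7 had an unadjusted p under the threshold.

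The labels do not say that pool numbers pair samples beyond the day. Same-numbered pools of 2 groups deviated from their group means with correlations across genes of -0.48 to 0.63, and 18 of 24 were over 0.1, among them all 4 pairs of KO-LysM VAT with KO-LysM SAT, of KO-LysM VAT with WT VAT and of KO-LysM SAT with WT VAT. With day removed, which the reported fit holds as a term, they were -0.31 to 0.38, and 6 of 24 were over 0.1. The 2 pools of a group and day then deviate by equal and opposite amounts. Both pools of a day thus give the same correlation, and the 24 are not separate values. With pool number as a block, 5, 3, 5, 2, 2, 2, 2 and 5 of the 10 genes passed, in the order of the comparisons above, and the block ended no call of the 10 genes other than the 4 named beside their results. Over all genes the count that passed ranged from 582 to 8117 in KO-LysM SAT minus WT SAT (6279 as reported), 331 to 8113 in KO-LysM VAT minus WT VAT (2724), 1353 to 11263 over both depots (8831), 199 to 2047 between the knockout depots (738), 60 to 4222 between the wild-type depots (486), 330 to 1904 for the difference of the effects (722), 18 to 8305 in KO-LysM SAT minus WT VAT (1178) and 1702 to 8369 in KO-LysM VAT minus WT SAT (6717).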
